A study of Mus musculus with 6 samples.

Results

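The receptors described here are 9 genes through which blood progenitors receive growth factor signals: Kit, Csf2ra, Csf2rb, Csf2rb2, Csf3r, Il3ra, Il6ra, Il6st and Lifr. They were chosen by name, and each of the 9 stands on 1 line of a table of 22381 genes. RNA had been sequenced from mouse LSK cells, a bone marrow fraction without mature lineage markers positive for Sca-1 and c-Kit that contains stem cells and multipotent progenitors. The groups were 3 samples of genotype Tgif1-/- and 3 WT samples, all from C57BL/6 mice of 8 to 12 weeks, with about 200 ng of RNA as the labels give it. Tgif1 encodes a homeodomain repressor of TGF-beta and retinoic acid responses. The labels do not say which part of Tgif1 is deleted, nor whether each sample was a different animal, and the deposited p-values may cover technical spread alone.

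Kit is a receptor tyrosine kinase that dimerises on binding stem cell factor and maintains stem cells, progenitors and mast cells. The other receptors have no kinase of their own and signal through JAK kinases and STAT factors. Receptors for GM-CSF and IL-3 pair a ligand-specific alpha chain with a beta chain, whereas receptors of the IL-6 family pair a ligand-specific chain with gp130, the product of Il6st. G-CSF binds a homodimer of the Csf3r product, which drives granulocyte production.

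The authors' deposited table gives 1 FPKM value a group (fragments scaled by transcript length and by sequencing depth), with no value for single samples. The spread between samples and the depth are therefore unknown. Pairs of FPKM values below have the Tgif1-/- group first, and log2 ratios are Tgif1-/- over WT. A gene was called where the authors' Cuffdiff test had been made and its q was at or under 0.05. The standard error is the one implied by the deposited statistic (log2 ratio divided by statistic), which is the authors' model error and not a measured spread. Tgif1 itself was listed at 88.6 and 71.5 FPKM with a failed test, so its level does not bear out the genotype label, and every direction below is between the groups as labelled.

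None of the receptors was called. Of the 9, 6 had been tested and the tests of 3 (Kit, Csf3r and Csf2rb2) had failed, and all 9 had at least 1 FPKM in both groups. The count of 0 called of 6 tested stands against a background of 0.662% called among the 10730 tested genes. At an unadjusted p under 0.05 by Cuffdiff, the 6 tested receptors included 1, Il6st, which was lower in the Tgif1-/- group. The background at that level was 5.41% of tested genes, made up of 3.55% lower and 1.85% higher. In direction, 4 tested receptors were lower and 2 higher, with a median log2 ratio of -0.13, while 57.4% of all tested genes were lower and their median was -0.03. All but Il6st (8 of 9) differed by less than 1.3-fold, as did 87.4% of tested genes that reached 1 FPKM in a group.

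Csf2rb and Csf2rb2 are near-identical neighbours, and the sequences printed here show where their coding sequences agree and differ. Untranslated parts, which reads can also come from, were not compared. Csf2rb encodes the common beta chain of the receptors for GM-CSF, IL-3 and IL-5, and Csf2rb2 the mouse beta chain that serves IL-3 alone. In the GENCODE transcripts (build GRCm38) their coding sequences have 2691 and 2637 bases and are identical at 2505 of 2631 positions aligned without a gap, or 95.2%. Of all windows of 50 bases in the Csf2rb coding sequence, 26.0% occur unchanged in that of Csf2rb2, and of windows of 100 bases 11.0% do. The longest identical run has 242 bases in exon 14 of both genes, at chr15:78348577-78348818 on the plus strand for Csf2rb and chr15:78284630-78284871 on the minus strand for Csf2rb2. A read from within it fits both genes equally:
shared run: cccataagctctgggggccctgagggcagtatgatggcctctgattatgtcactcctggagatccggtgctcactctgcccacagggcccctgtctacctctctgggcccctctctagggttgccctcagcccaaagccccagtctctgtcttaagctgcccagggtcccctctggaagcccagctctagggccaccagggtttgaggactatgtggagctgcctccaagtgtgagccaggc
The gapless block of 60 bases with the most differences, 13, lies in exon 4, at chr15:78338893-78338952 on the plus strand for Csf2rb and chr15:78294379-78294438 on the minus strand for Csf2rb2. Capitals mark the positions at which the pair differ:
Csf2rb: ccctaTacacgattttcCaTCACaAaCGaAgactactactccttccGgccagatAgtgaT
Csf2rb2: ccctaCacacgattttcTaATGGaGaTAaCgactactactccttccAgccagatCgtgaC
No source used here says how the authors' counting split reads shared by the pair, so the level of each is uncertain.

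In level, Kit stood far above the other receptors and Lifr lowest. By mean FPKM the order was Kit, Csf3r, Il6st, Csf2rb, Il6ra, Csf2ra, Csf2rb2, Il3ra and Lifr, and FPKM is scaled by transcript length, so levels can be set side by side. The Kit level was 72.3 times that of Lifr in the Tgif1-/- group and 84.4 times in the WT group. Among genes that reached 1 FPKM in a group, 94.5% lay below Kit, 87.0% below Csf3r, 58.3% below Il6st and 11.9% below Lifr. Between the groups 1 pair of neighbours in this order changed places, Il6st and Csf2rb. Without values for single samples it cannot be said which neighbours differ beyond their spread.

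**Figure D1:**
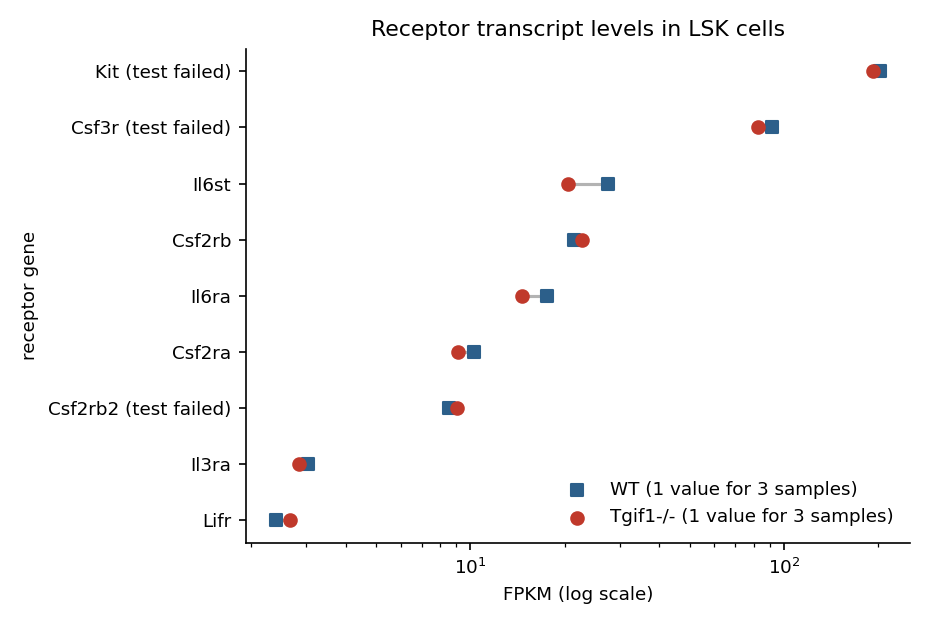
FPKM (log axis) of the 9 receptor genes, with circles for the Tgif1-/- group and squares for the WT group, each 1 deposited value for 3 samples and so without error bars. Kit is highest at 193 and 202 FPKM, Lifr is lowest at 2.67 and 2.40 FPKM, and the widest gap between the groups is that of Il6st.

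Kit (ENSMUSG00000005672, chromosome 5, positions 75970941 to 76052747 in the table) was at 193 FPKM in the Tgif1-/- group and 202 FPKM in the WT group, a log2 ratio of -0.07. Its test had failed, so this ratio has no error. Sorting on c-Kit, the protein made from this gene, is part of how LSK cells are obtained, so its level describes a gated population. Failure was common at high levels: 35.4% of genes averaging 50 FPKM or more had a failed test, against 21.2% of those from 1 to 50 FPKM. The other sorting marker, Ly6a, which encodes Sca-1, was at 120 and 88.9 FPKM, a log2 ratio of 0.43 with a standard error of 0.22 (Cuffdiff q 0.949). The stem and progenitor antigen gene Cd34 was at 314 and 316 FPKM, Cd48 at 159 and 154 FPKM, Slamf1 at 4.02 and 4.08 FPKM, and Procr at 7.32 and 8.82 FPKM. None of these was called, and Cd34 had a failed test.

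Csf3r (ENSMUSG00000028859, chromosome 4, positions 125701794 to 125722219), the G-CSF receptor gene, was second in level at 82.4 and 91.7 FPKM, a log2 ratio of -0.15 that again has no error because the test had failed. Of 10 tested markers of neutrophils, the cells that G-CSF drives, 8 were lower, 5 of them with p under 0.05 before adjustment. Cuffdiff called none. Of all tested genes, 57.4% were lower, and 3.55% were lower with such a p. Among the 5, S100a8, a calcium-binding protein of granulocytes, was at 38.1 and 73.7 FPKM and Ngp, a secondary granule protein, at 3.47 and 8.19 FPKM. The listed markers at the highest levels moved less. Log2 ratios were -0.35 for Elane and -0.16 for Ctsg, neither with such a p. They were -0.11 for Mpo and -0.02 for Prtn3, both with failed tests. The summed level of the 13 listed neutrophil markers was 3786 and 4176 FPKM, most of it from Mpo, and none was at 0. Whether such cells had a part in the Csf3r value was not tested, and in bulk RNA fewer cells of a type and less RNA per cell cannot be told apart.

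Of the beta chains, Csf2rb was tested and not called, and the test of Csf2rb2 had failed. Csf2rb (ENSMUSG00000071713, chromosome 15, positions 78156420 to 78184277) was at 22.7 and 21.4 FPKM, a log2 ratio of 0.08 with a standard error of 0.20, a 95% interval from -0.31 to 0.48 and a Cuffdiff q of 1.00. Csf2rb2 (ENSMUSG00000071714, positions 78112947 to 78136052), which ends 20.4 kb before Csf2rb starts, was at 9.07 and 8.56 FPKM, also a log2 ratio of 0.08, without an error. Csf2rb was 2.50 times as high as Csf2rb2 in each group. Added together, the pair came to 31.7 and 29.9 FPKM. This sum depends less than either value on how counted reads were divided within the pair. It is not free of that division, since each gene is scaled by its own transcript length. Nor would it recover reads left out for fitting both.

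The alpha chains, which bind GM-CSF or IL-3 before the beta chain joins, were below Csf2rb in level and also not called. Csf2ra (ENSMUSG00000059326, chromosome 19, positions 61300305 to 61304321), the GM-CSF alpha chain, was at 9.16 and 10.3 FPKM. Its log2 ratio was -0.17 with a standard error of 0.30, an interval from -0.76 to 0.43 and a Cuffdiff q of 1.00. Il3ra (ENSMUSG00000068758, chromosome 14, positions 15179009 to 15188004), the IL-3 alpha chain, was at 2.84 and 3.04 FPKM, a log2 ratio of -0.10 with a standard error of 0.29, an interval from -0.67 to 0.47 and a Cuffdiff q of 1.00. Csf2rb exceeded Csf2ra 2.47-fold in the Tgif1-/- group and 2.08-fold in the WT group, and exceeded Il3ra 7.97-fold and 7.02-fold. These are ratios of the listed values, without a spread between samples, and the Csf2rb value depends on how reads shared with Csf2rb2 were assigned.

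Mast cells and basophils depend on Kit and IL-3 signals. Of the receptor genes for these signals, Il3ra and Csf2rb were tested and not called. At their implied errors a call needed 2.08-fold for Il3ra and 1.66-fold for Csf2rb. The tests of Kit and Csf2rb2 had failed, so neither could have been called. These outcomes do not show that the receptors stayed level beside the markers of mast cells and basophils. All 11 tested markers of these cells were higher and 4 were called, against 0.289% of tested genes called higher: the proteases Prss34 (151 and 51.8 FPKM) and Mcpt8 (77.2 and 28.0 FPKM), the carboxypeptidase Cpa3 (115 and 52.4 FPKM) and the IgE receptor chain Ms4a2 (15.4 and 6.12 FPKM). The summed level of the 14 listed markers was 520 FPKM in the Tgif1-/- group and 256 FPKM in the WT group, with Tpsab1 at 0 in both. The mast cell proteases Cma1 (1.34 and 0.728 FPKM) and Tpsb2 (0.776 and 0.698 FPKM) were also low, and neither was called. Mcpt4 was lower in the Tgif1-/- group, at 0.0811 and 0.207 FPKM, with too few reads to test. Eosinophil markers, from cells that use the common beta chain for IL-5, were higher in 7 of 7 tested with 1 called, Prg2 at 61.8 and 20.9 FPKM. Of all tested genes, 42.6% were higher. The highest of the other eosinophil markers was Ear2 at 3.19 and 1.29 FPKM, and none of these others had an unadjusted Cuffdiff p under 0.05. Among them Il5ra, the IL-5 alpha chain, was at 1.08 and 0.980 FPKM. The part of these cells in the receptor values was not tested.

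Among the IL-6 family chains, Il6st had the largest difference of the 9 receptors and the smallest p. Il6st (ENSMUSG00000021756, chromosome 13, positions 113265216 to 113297068), which encodes the shared signalling chain gp130, was at 20.5 FPKM in the Tgif1-/- group and 27.5 FPKM in the WT group, or 74.6% of the WT value. Its log2 ratio was -0.42 with a standard error of 0.20, and the 95% interval ran from -0.81 to -0.03. The unadjusted Cuffdiff p was 0.0338 and q was 0.780, so the difference did not pass the test across the table. As small a p was found for 4.33% of all tested genes. Il6st was thus the 1 tested receptor whose interval did not hold 0, and it was not called.

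Il6ra (ENSMUSG00000027947, chromosome 3, positions 89673246 to 89717084), the IL-6 binding chain, was at 14.6 and 17.5 FPKM. Its log2 ratio was -0.27 with a standard error of 0.23, an interval from -0.71 to 0.18 and a Cuffdiff q of 1.00. Lifr (ENSMUSG00000054263, chromosome 15, positions 7079559 to 7147489), which pairs with gp130 to bind LIF, was at 2.67 and 2.40 FPKM, a log2 ratio of 0.15 with a standard error of 0.20, an interval from -0.25 to 0.55 and a Cuffdiff q of 1.00. Il6st stood 1.41 times above Il6ra in the Tgif1-/- group and 1.57 times in the WT group, and 7.70 and 11.5 times above Lifr. These ratios of listed values likewise have no spread between samples.

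**Figure D2:**
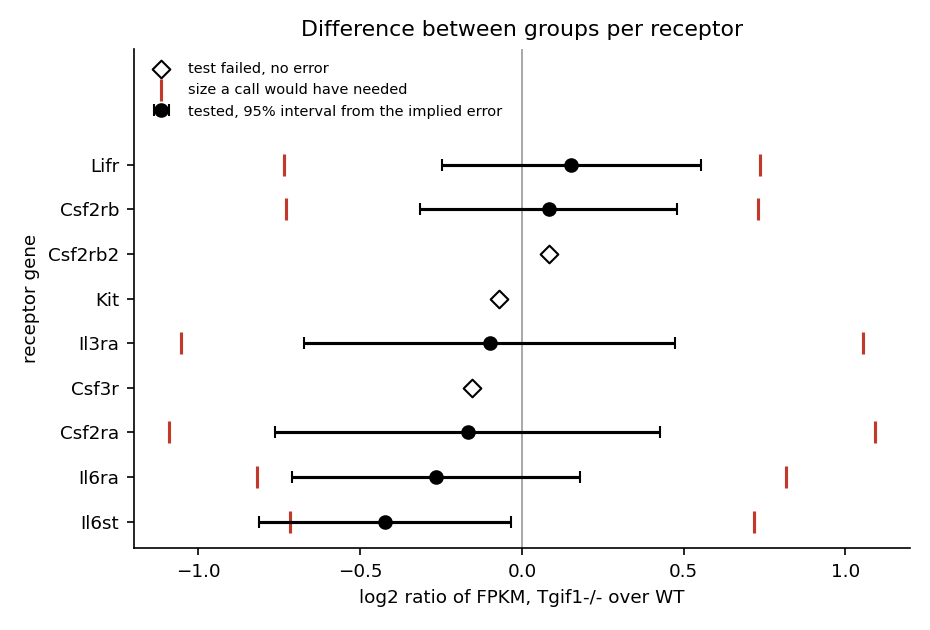
Log2 ratio of FPKM (Tgif1-/- over WT) for each receptor, with 95% intervals from the implied standard error for the 6 tested genes, open diamonds for the 3 with a failed test, and red ticks at the size a call would have needed. The Il6st interval, from -0.81 to -0.03, is the one that does not reach 0, and no point lies beyond its ticks.

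The errors set how large an observed difference had to be for a call. The smallest statistic among called genes was 3.60, which at the implied standard errors of the 6 tested receptors (0.20 to 0.30) corresponds to a difference of 1.64-fold for Il6st, 1.66-fold for Csf2rb, 1.67-fold for Lifr, 1.76-fold for Il6ra, 2.08-fold for Il3ra and 2.13-fold for Csf2ra. The implied error of Lifr, 0.20, lies well under the median of 0.43 at like expression, and with that median Lifr would need 2.91-fold. For Il3ra the error was 0.29 against a median of 0.37, with which it would need 2.53-fold. Observed differences smaller than these sizes would not have been called. The sizes are not limits on the true differences. For Kit, Csf3r and Csf2rb2 no such size can be given.

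**Figure D3:**
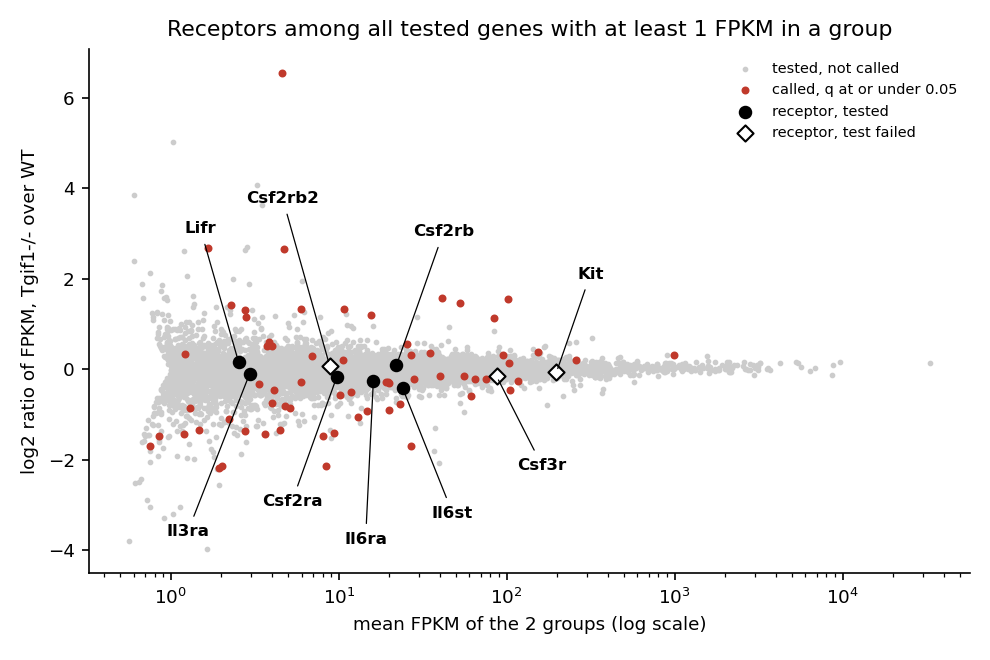
Log2 ratio (Tgif1-/- over WT) against mean FPKM (log axis) for all tested genes that reached 1 FPKM in a group, called genes in red and the receptors in black (open diamonds where the test failed). The receptors lie within the grey band of genes at like expression, from -0.42 (Il6st) to 0.15 (Lifr).

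No listed ligand of these receptors was above 8.27 FPKM in either group, and the highest, Clcf1, lay above Il3ra and Lifr in level. Of 12 listed ligands, 5 reached 1 FPKM in a group, 6 had too few reads to test, and for the 6 tested Cuffdiff gave no call and no p under 0.05 even before adjustment. The gp130 family ligands Clcf1 (7.63 and 8.27 FPKM), Cntf (2.31 and 3.55 FPKM), Osm (1.52 and 1.33 FPKM), Il11 (1.47 and 1.63 FPKM) and Ctf1 (1.06 and 1.29 FPKM) were those at that level. Csf2 and Il3 were listed at 0 in both groups, and Kitl, stem cell factor itself, at 0.0275 and 0.0864 FPKM with too few reads to test.

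Genes that carry the receptor signal onward gave no call either. Over the lists of ligands, JAK-STAT genes, adaptors, feedback inhibitors, STAT targets and other cytokine receptors, 137 further genes were in the table and 93 had been tested, with 0 called by Cuffdiff and 7 at an unadjusted p under 0.05, or 7.53% against 5.41% of all tested genes. Of the 93, 41 were higher and 52 lower, with a median log2 ratio of -0.02. Among 8 tested JAK-STAT genes, 4 were higher and 4 lower, and 1 had an unadjusted p under 0.05. This was Stat4, which relays IL-12, at 32.0 and 40.5 FPKM (Cuffdiff q 0.503). Its implied standard error, 0.14, lay under the median of 0.20 at like expression. With errors floored at such medians, its unadjusted Cuffdiff p went from 0.0129 to 0.0829. Those of Il12rb1 and Il12rb2, also among the 7, likewise rose above 0.05. Stat3, the main factor below gp130, was at 101 and 93.8 FPKM and Stat6, which relays IL-4, at 45.5 and 49.9 FPKM. Stat5a and Stat5b, which act below Kit and the beta chains, were at 27.9 and 27.0 FPKM and at 22.9 and 21.8 FPKM.

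Of the adaptors, kinases and phosphatases of Kit and beta chain signalling, none of 19 tested was called by Cuffdiff and 0 had an unadjusted p under 0.05. Their log2 ratios ran from -0.38 to 0.13 around a median of -0.03, and 9 more had failed tests. The smallest p-values belonged to Dok2, an adaptor that dampens Ras signalling, at 19.6 and 24.4 FPKM, to the phospholipase gene Plcg2 at 41.8 and 45.7 FPKM, and to the docking proteins Gab2 (11.3 and 10.3 FPKM) and Gab3 (4.64 and 6.03 FPKM). The feedback inhibitors gave 0 called and 0 at an unadjusted p under 0.05 of 15 tested by Cuffdiff, with a median of -0.05. Those with the smallest p were Spry1 (1.90 and 2.09 FPKM) and Spry2 (6.40 and 7.72 FPKM), inhibitors of receptor tyrosine kinase signalling, and Socs2 (4.49 and 5.49 FPKM) and Socs4 (31.1 and 29.6 FPKM), of the family that restrains cytokine receptors.

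STAT5 and STAT3 target genes were split evenly, 10 higher and 10 lower of 20 tested, with none called by Cuffdiff. Before adjustment, 1 was higher and 2 were lower with p under 0.05. Bcl2l1, whose product Bcl-xL protects cells from apoptosis, was at 9.28 and 6.19 FPKM, a log2 ratio of 0.58 with a standard error of 0.21 (Cuffdiff q 0.305). Fos, an immediate early gene, was at 7.66 and 11.2 FPKM (q 0.503) and Cdkn1a, which encodes the CDK inhibitor p21, at 34.3 and 47.3 FPKM (q 0.689). Lcn2, a STAT3 target that is also a neutrophil granule gene, had a log2 ratio of -0.80 with a standard error of 0.47.

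Other cytokine and growth factor receptors had a median log2 ratio of 0.08, with 18 of 27 tested higher, 9 lower and none called by Cuffdiff. Before adjustment 3 had p under 0.05: Il7r, the IL-7 receptor of lymphoid progenitors, at 8.84 and 13.6 FPKM (q 0.522), and the IL-12 receptor chains Il12rb1 at 1.64 and 2.18 FPKM (q 0.374) and Il12rb2 at 16.8 and 14.7 FPKM (q 0.357). Il4ra, the IL-4 binding chain, was at 42.6 and 34.1 FPKM. Beside Il7r, markers of B cells, which develop under IL-7, were lower in 7 of 8 tested, with 4 called lower against 0.373% of tested genes: Ebf1 (3.13 and 13.7 FPKM), Igll1 (12.7 and 40.9 FPKM), Blnk (4.24 and 11.8 FPKM) and Cd79a (5.16 and 13.7 FPKM). Their summed level over 10 markers was 58.5 and 120 FPKM, and their part in the Il7r value was not tested.

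Lineage antigens were mostly low. Cd3e was at 0.134 and 0.250 FPKM and Cd8a at 0.254 and 0.189 FPKM, both with too few reads to test, Cd4 at 3.21 and 2.58 FPKM, Ly6g at 0.558 and 3.29 FPKM (Cuffdiff q 0.859) and Klrb1c at 1.72 and 2.21 FPKM. Itgam, the Mac-1 chain, was at 35.4 and 34.0 FPKM, and the pan-leukocyte gene Ptprc at 47.3 and 49.6 FPKM. Thus transcripts of lineage antigens were not absent from the sorted fraction, Itgam least so. The remaining marker lists had 0 called by Cuffdiff. Monocyte markers had 4 higher and 4 lower of 8 tested, none with p under 0.05 before adjustment. Erythroid markers were higher in 7 of 8 tested and megakaryocyte markers in 6 of 7, of which 1 (Car1) and 2 (Itga2b and Pf4) had such a p, while the platelet chemokine gene Ppbp was lower with such a p. Of 3 tested stromal and endothelial markers, 2 were lower with such a p, Bgn and Fn1. Among all tested genes, 42.6% were higher, 1.85% were higher with such a p and 3.55% were lower with such a p. Stromal cells are the usual source of stem cell factor and their marker levels were low, with a summed level of 61.8 and 59.2 FPKM over 9 genes, most of it from Pecam1, which blood progenitors also express.

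**Figure D4:**
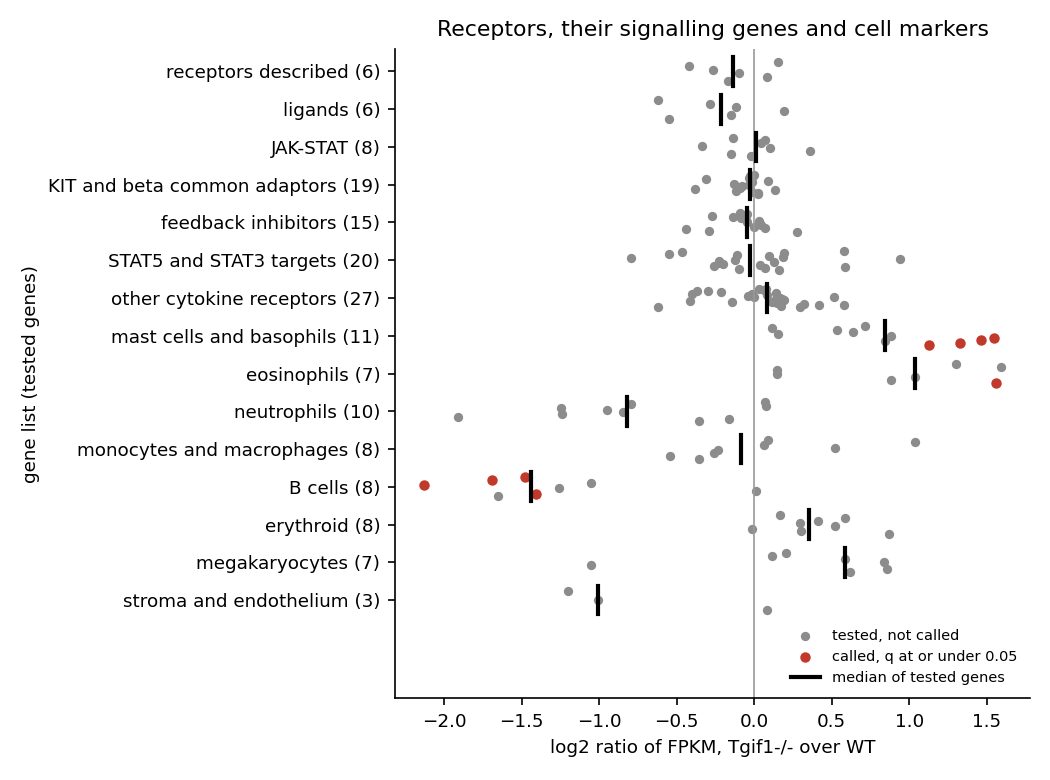
Log2 ratios (Tgif1-/- over WT) of the tested genes of each list, with the number tested in brackets, a bar at the median and called genes in red; vertical scatter within a row has no meaning. The 6 tested receptors and the 6 lists of ligands, signalling genes, STAT targets and other cytokine receptors hold no called gene. Medians of these 6 lists run from -0.22 (ligands) to 0.08 (other cytokine receptors). Medians to the right are those of eosinophil (1.04), mast cell and basophil (0.84), megakaryocyte (0.58) and erythroid (0.36) markers. Medians to the left are those of B cell (-1.44), stromal and endothelial (-1.01) and neutrophil (-0.82) markers.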

How the data were processed

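Gene expression had been measured by RNA sequencing in 6 samples, 3 of each genotype. The submitters' processing notes name TopHat and Cuffdiff without versions, and the build hg19, although all members carry mouse identifiers. None of the 9 listed positions equals that of GRCm38, and no source used here names the mouse build. Starts count from 1. Per the file headers, the deposited table holds FPKM values computed by the authors, 1 a group, with their log2 fold change (WT over Tgif1-/-, turned round here) and p-value and q-value. Failed tests keep FPKM values while their deposited p is 1.

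Members and lists were chosen with earlier results of these data known. Named were all members, ligands with at least 1 FPKM, LSK and lineage markers, and in other lists the called genes and up to 4 with the smallest p-values. Csf2, Il3, Kitl, Stat5a, Stat5b and Il5ra, and Tpsab1, Cma1, Tpsb2, Mcpt4, Mpo, Elane, Ctsg, Prtn3 and Pecam1, were named after their values were seen. A few genes so selected are not reported here. No genes of like pattern were named, since 2 values hold no pattern. Intervals are 95% intervals from the implied standard error. Coding sequences (GENCODE M21, GRCm38) were aligned with Biopython 1.88. Python 3.11.15, pandas 2.3.3, numpy 2.4.6 and scipy 1.17.1 were used, and the calculations were tested on simulated data. Alternatives were other q thresholds, minimum FPKM values, an error floor, centring, pseudocounts and summing lines or the beta chains.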

Additional observations from a re-analysis of the deposited data

How the results depend on the processing

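No receptor was called at a q of 0.01 or 0.1, with p adjusted again over tested genes with at least 1 or 5 FPKM in a group, after centring on the median of tested genes, or with each standard error floored at the median of its bin of 20 by expression. The smallest adjusted p of a receptor under the floor or centring was 0.980. In the 44 alternatives run on the receptor ratios all 9 kept their direction, and the 6 with a standard error moved by less than it. Only centring, a shift of 0.03, and summing the beta chains could have turned a direction. Pseudocounts cannot change a sign, the floor leaves the ratio as it is, and each receptor has 1 line to sum. With a pseudocount of 1 the ratios moved by at most 0.04. The count of 71 called genes over the table (31 higher, 40 lower) went to 39 at a q of 0.01, 46 over genes with at least 5 FPKM and 22 with the floor; with centring it was 68, split 36 higher and 32 lower. Of genes in the lists, 9 were called, and 8 to 13 in the alternatives. No replicate could be left out, since the table used here has 1 value a group, and that alternative was not run. No paired analysis was possible because the groups share no replicate numbers and the columns carry none.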

Other observations

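Receptors of other early blood growth factors, named after their values were seen, also had failed tests. Flt3, the receptor of multipotent progenitors for FLT3 ligand, was listed at 118 FPKM in the Tgif1-/- group and 136 FPKM in the WT group, and Csf1r, the M-CSF receptor, at 11.0 and 12.6 FPKM. With Kit and Csf3r these make 4 growth factor receptors whose group values carry no error.

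Some of the smallest p-values among related genes went with unusually small implied errors. Il12rb2 had a log2 ratio of 0.19 and an implied error of 0.07, where the median of genes at like expression was 0.23, and its unadjusted p of 0.00665 by Cuffdiff became 0.397 with the error floor. Il12rb1 had an implied error of 0.15 against a median of 0.43, and its p went from 0.00751 to 0.336. Among the receptors, Lifr had an implied error of 0.20 against 0.43, while Il6st was at 0.20 against 0.21 and its p went from 0.0338 to 0.0429. The log2 ratios of Csf2rb and Csf2rb2 were 0.0833 and 0.0831.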
